A study of Mus musculus with 18 samples.

Results

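The transcriptional response of WT mouse skeletal muscle to 24 h without food was described from 8 RNA-seq libraries, 4 of fed and 4 of fasted mice, out of 18 in the series. They were chosen by their genotype and feeding labels and by no measured value. The other 10 libraries came from fed and fasted MKO mice, in which Cre recombinase, driven by the human skeletal actin promoter, deletes PGC-1β from muscle fibers, and served only for comparison. The WT mice were adult males (10 weeks or older, strain label C57Bl6/J) that carried the same floxed PGC-1β allele on both chromosomes as the MKO mice but no Cre, so the floxed allele was present in every group. Fed mice had free access to chow. For the fasted mice, food was withdrawn in the morning, the animals were moved to clean cages, and muscle was taken 24 h later. Whether fed mice also changed cages is not stated. The labels name the muscle quadriceps, whereas the methods of the study name Gastrocnemius, and the replicates are labelled biological. The question was which genes the muscle of an animal with intact PGC-1β raised or lowered during a day without food.

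Skeletal muscle is the largest store of amino acids in the body. Without food, insulin falls and glucocorticoids and adrenergic signals rise. Forkhead (FoxO) factors, which insulin signaling holds in the cytoplasm through the kinase Akt, then enter the nucleus and, together with the glucocorticoid receptor, are known to turn on ubiquitin ligases and autophagy genes that release amino acids for the liver. At the same time muscle changes from glucose to fatty acids as fuel, a change in which pyruvate dehydrogenase kinases and PPAR nuclear receptors take part.

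Values below are median-scaled TPM (TPM being transcript abundance corrected for gene length and library size, as deposited, here multiplied by 1 factor per library so that all 8 libraries have the same median), given as mean ± SD with n = 4 per group unless single libraries are listed. A log2 change is the fasted minus the fed mean of log2(median-scaled TPM + 0.1), given ± SE, and a gene is called higher or lower, or said to have risen or fallen, at a Benjamini-Hochberg adjusted p under 0.05 in limma. Libraries are listed in the order of their replicate numbers.

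The libraries held 10729 to 11558 genes at 0.5 TPM or more. Transcripts of the mitochondrial genome made up 74.3 to 75.0% of the TPM in fed libraries and 70.8 to 81.3% in fasted ones, with WT fasted 4 at the top. That library also stood apart on the second principal component and carried more transcript of slow fiber genes than the other 7, as described below. Several results that it touches are given with and without it, and others only with it. The muscle fiber markers Acta1, Ckm, Ttn, Mb, Des and Myh4 summed to 34100 to 38000 in fed libraries and 28200 to 36400 in fasted ones. WT fasted 4 was the lowest, and in all 8 libraries this sum was above that of every other set of cell type markers. Ppargc1b, which encodes PGC-1β, was listed at 1.45 to 2.05 deposited TPM in WT fed, 0.726 to 1.47 in WT fasted, 1.76 to 2.35 in MKO fed and 0.422 to 1.11 in MKO fasted muscle. Since Cre removes only some of its exons, a value over the whole gene does not check the genotype labels.

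Of 11356 genes tested, 4415 (38.9%) were called, 1937 (17.1%) of them higher and 2478 (21.8%) lower in fasted muscle. The fed and fasted libraries did not overlap for 1868 genes (16.4%) with higher and 2416 genes (21.3%) with lower fasted values. The median log2 change over all tested genes was -0.06. Without WT fasted 4, 2234 genes were called higher and 2827 lower, and 4199 of the 4415 genes were called in the same direction. On the TPM as deposited, without median scaling, 1197 genes (10.5%) were called higher and 1654 (14.6%) lower, and 2802 were shared in direction with the median-scaled fit. In bulk muscle, fewer cells of a type and less RNA per cell cannot be told apart.

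**Figure D1:**
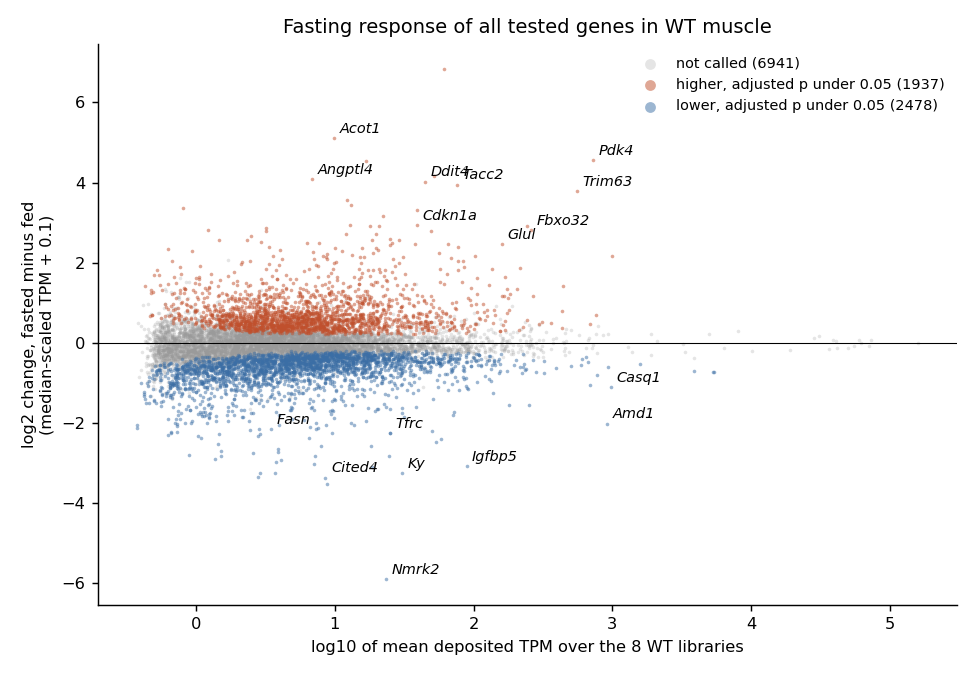
Log2 change between fasted and fed WT muscle (y axis, fasted minus fed) of 11356 genes against the log10 of their mean deposited TPM (x axis). Each point is a gene. The 1937 genes called higher are in red, the 2478 called lower in blue and the 6941 not called in grey, and Pdk4, Trim63 and Amd1 combine a large change with a high level.

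Pdk4, the kinase that shuts off pyruvate dehydrogenase, read 74.5, 49.1, 47.5 and 67.3 in the fed and 1282, 1198, 1572 and 1473 in the fasted libraries. The 2 groups were far apart, with a log2 change of 4.55 ± 0.16 (adjusted p = 1.7e-07). Acot1 and Acot2, thioesterases that release fatty acids from coenzyme A, had log2 changes of 5.11 ± 0.45 and 4.17 ± 0.21. Without WT fasted 4, the highest library for both, the log2 changes were 4.73 and 4.02. The sequences of Acot1 and Acot2 are closely alike, so reads may have been shared between them. Angptl4, an inhibitor of lipoprotein lipase, rose from 0.679 ± 0.256 to 13.6 ± 6.28, Plin5, a lipid droplet coat protein that contacts mitochondria, from 2.09 ± 0.722 to 25.2 ± 12.9, and the mitochondrial carrier family member Slc25a34 from 1.83 ± 0.907 to 23.7 ± 14.9. For these 3 genes WT fasted 4 had the highest value, and their log2 changes without it were 3.82, 3.15 and 3.20 against 4.09, 3.45 and 3.57 with it. Ddit4, which inhibits the growth kinase complex mTORC1, read 6.94, 2.87, 3.77 and 3.83 in the fed and 152, 80.3, 54.1 and 33.1 in the fasted libraries, which scattered widely. Tacc2, Cebpd, Arrdc2 and Angptl7 were the others of the 12 highest genes with a gene name and a mean of at least 5 TPM, beside Trim63 (below), with log2 changes of 3.94, 3.32, 3.16 and 4.55. A transcript listed under a clone name, 8430408G22Rik (Depp1 in the reference gene table, a known FoxO target), had the largest log2 change of all genes tested, 6.82 ± 0.55, with 104, 102, 214 and 46.3 in fasted against at most 2.49 in fed muscle. The naming rule leaves out gene models listed under a clone name, so it was chosen after its value was seen.

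Nmrk2, the muscle enzyme that makes NAD from nicotinamide riboside, read 11.4, 74, 63.4 and 38.4 in the fed and 0.566, 0.374, 0.312 and 1.17 in the fasted libraries, a log2 change of -5.90 ± 0.56 (adjusted p = 6.52e-05) with WT fed 1 the lowest of the fed libraries. Cited4, a transcriptional coregulator raised in hearts by endurance exercise, fell from 15.7 ± 2.73 to 1.45 ± 0.353. Ky, a protein of the muscle Z-disk whose loss causes kyphoscoliosis in mice, fell from 55.4 ± 6.01 to 5.72 ± 0.547, and Lrrc38, an auxiliary subunit of BK potassium channels, from 33.1 to 3.75. Igfbp5, which binds insulin-like growth factors in the matrix, read 111, 202, 167 and 161 in the fed and 16.8, 19.6, 21.7 and 16.5 in the fasted libraries. The water channel Aqp4 of fast fibers, the ceramide synthase Cers1, the phospholipase Plcd4, Tmem233, Nrep, Lingo3 and the interferon-inducible GTPase Iigp1 completed the 12 lowest, with log2 changes between -2.83 and -2.36. Each of the 24 genes had fed and fasted values that did not overlap, as the naming rule required.

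**Figure D2:**
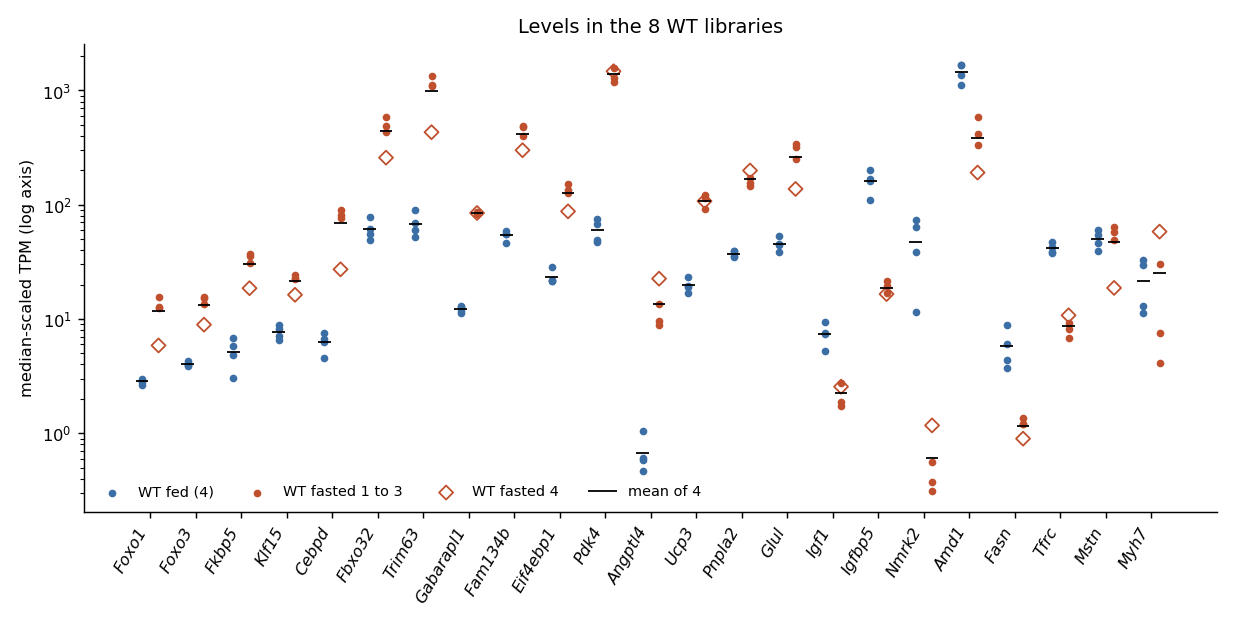
Median-scaled TPM (log axis) of 23 genes in each WT library, with fed libraries in blue, WT fasted 1 to 3 as red dots, WT fasted 4 as an open diamond and group means as bars. Fed and fasted values are separate for all but Mstn and Myh7, and WT fasted 4 lies toward the fed values for Trim63, Fbxo32, Glul and Cebpd but not for Pdk4, Ucp3 or Gabarapl1.

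Transcripts of 28 genes of insulin and growth factor signaling were tested, of which 9 rose and 4 fell. The activity of the pathway was not measured. Insr, the insulin receptor, was at 10.8 ± 0.233 in fed muscle and rose, with a log2 change of 0.89 ± 0.08. Pdpk1, the kinase that activates Akt, had a log2 change of 0.63 ± 0.07. Igf1, the growth factor that muscle itself makes, fell from 7.39 ± 1.7 to 2.23 ± 0.495 (log2 change -1.68 ± 0.19). Among the 4 FoxO genes, Foxo1 read 3, 2.89, 2.81 and 2.66 in the fed and 12.8, 12.4, 15.6 and 5.87 in the fasted libraries. Foxo3 read 4.32, 4.02, 3.94 and 3.88 against 13.5, 15.3, 15.6 and 8.93. Both rose (adjusted p = 0.000374 and 7.5e-05), and for both WT fasted 4 held the lowest fasted value. Foxo6 fell, with a log2 change of -1.62 ± 0.24, and the fourth gene was not called.

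Downstream of Akt, 8 of 28 genes of the mTORC1 list rose and 6 fell, with a median log2 change of -0.02. The share that fell was near the 21.8% of all genes, of which 17.1% rose and whose median was -0.06. Inhibitors of growth were among the increases. Eif4ebp1, which blocks the cap-binding factor eIF4E until mTORC1 phosphorylates it, read 21.7, 22, 28.4 and 21.7 in the fed and 128, 153, 135 and 87.5 in the fasted libraries. Sesn1, a leucine-binding inhibitor of mTORC1, went from 7.83 ± 0.886 to 48.6 ± 13.7, and Rragd, a GTPase that recruits mTORC1 to lysosomes, fell from 71.5 to 41.2. Of 11 genes of the energy sensor AMPK and its upstream kinases, 1 rose and 4 fell. With a filter of at least 2 TPM in 4 libraries, 1 of 8 tested genes fell. The higher count was 2 without WT fasted 4 and 3 with no filter on low values. Prkag3, the γ subunit typical of fast muscle, read 81.2, 87.2, 85.9 and 70 in the fed and 21.5, 21.2, 22 and 9.36 in the fasted libraries.

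Targets of the glucocorticoid receptor made up the list with the largest median log2 change, 1.47 over 21 tested genes, of which 16 rose and 2 fell. Fkbp5, a chaperone of the receptor, read 3.03, 5.86, 6.85 and 4.81 in the fed and 35.3, 30.8, 37.2 and 18.6 in the fasted libraries. Klf15, a regulator of amino acid breakdown, read 8.88, 7.1, 8.15 and 6.54 against 22.7, 22.4, 24.4 and 16.3. The metallothioneins Mt1 and Mt2, which bind zinc, had log2 changes of 2.48 ± 0.10 and 2.71 ± 0.23, and Cebpb, a partner of Cebpd, one of 1.52 ± 0.09. Without WT fasted 4 the counts were again 16 and 2, and 1 fell without WT fed 3 or WT fasted 2. The 2 that fell, named for the smallness of the count, were Sgk1, a kinase (-0.84 ± 0.23), and Bcl6, a repressor (-0.98 ± 0.18), which read 13.4, 15.6, 9.23 and 14.3 in the fed and 7.54, 7.26, 6.27 and 5.11 in the fasted libraries. The glucocorticoid receptor binds a pair of half-sites of the letters AGAACA. The 250 bases before a start site held this half-site on either strand for 3 of the 15 called members with a promoter in the RefSeq table, 3 of 17 called or not, 16.1% of all 32851 promoters and 12.8% of those of tested genes. Bcl6 is shown because it had the largest change among the 3 (GRCm38.p6, chr16:23981284-23981533, minus strand, in an intron of longer Bcl6 transcripts), with the half-site in capitals:
Bcl6: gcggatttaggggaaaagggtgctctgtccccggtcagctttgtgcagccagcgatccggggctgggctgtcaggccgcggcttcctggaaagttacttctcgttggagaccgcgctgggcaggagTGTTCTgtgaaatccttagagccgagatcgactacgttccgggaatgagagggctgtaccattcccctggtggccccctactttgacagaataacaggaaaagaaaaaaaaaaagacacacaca

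Of 21 genes of cAMP signaling, 7 rose and 5 fell. On the deposited TPM 6 rose and 1 fell, and with no filter on low values 1 fell. Junb and Sik1, immediate targets of the pathway, rose, with log2 changes of 2.50 ± 0.29 and 1.83 ± 0.25. The phosphodiesterases that degrade cAMP moved apart, Pde4a with a log2 change of -2.10 ± 0.16 and Pde4d with one of 1.29 ± 0.12. Mstn, the secreted inhibitor of muscle growth, read 39.3, 60, 54.4 and 46.4 in the fed and 49.1, 63.6, 58.1 and 18.7 in the fasted libraries, and the groups overlapped (log2 change -0.20 ± 0.34, adjusted p = 0.667). Without WT fasted 4 its log2 change was 0.20 with an adjusted p of 0.303. In the list of myostatin, activin and BMP signaling, 4 of 28 genes rose, a count that was 2 when WT fed 1, WT fed 3 or WT fasted 1, 2 or 3 was left out, and 5 fell, among them the ligand Gdf11 (-1.85 ± 0.12) and its mediator Smad3 (-1.56 ± 0.13). Both shares were below those of all tested genes, 17.1% higher and 21.8% lower. On the deposited TPM 1 rose and 3 fell. In the list of PPAR, ERR and PGC-1 regulators 7 of 21 genes rose and 2 fell, with a median log2 change of 0.26. Without WT fasted 4 the counts were 7 and 6, and on the deposited TPM 4 and 2. Ppargc1a, which encodes PGC-1α, read 8.97, 9.19, 8.92 and 10.1 in the fed and 4.38, 4.62, 3.76 and 6.56 in the fasted libraries, and fell (log2 change -0.96 ± 0.15). Ppargc1b itself read 1.99, 1.84, 1.45 and 1.56 against 1.02, 1.06, 0.684 and 1.85. Its groups overlapped only through WT fasted 4, its log2 change was -0.60 ± 0.25 (adjusted p = 0.0787), and without that library it was -0.84 with an adjusted p of 0.00495.

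Ubiquitin ligases attach ubiquitin to proteins bound for the proteasome. Of 33 ligases with known roles in muscle mass, 14 rose and 4 fell, and the median log2 change was 0.13. The lower count was 2 on the deposited TPM and without WT fed 1, WT fed 3 or WT fasted 2. Trim63 (MuRF-1), which marks thick filament proteins, read 52.4, 90.6, 69 and 59.9 in the fed and 1095, 1114, 1339 and 431 in the fasted libraries, a log2 change of 3.78 ± 0.32 (adjusted p = 3.62e-05) and of 4.14 without WT fasted 4. Fbxo32 (atrogin-1) read 49.2, 77.9, 61.4 and 55.8 against 436, 492, 584 and 258, with a log2 change of 2.81 ± 0.24. On this length-corrected scale the levels of the 2 genes were alike in fed muscle, and Trim63 was above Fbxo32 in each fasted library. The F-box ligases Fbxo31, Fbxo30 (known to act in denervated muscle) and Fbxo21 had log2 changes of 1.64, 1.32 and 1.21. FoxO factors bind the letters GTAAACA, which occurred on either strand in the 250 bases before 1 of the 15 called ligases with a RefSeq promoter, 2 of 28 called or not, 3.17% of all 32851 promoters and 2.53% of those of tested genes. The called ligase was Trim63 (chr4:134314870-134315119, plus strand), whose match, in capitals, starts 194 bases before the start site. The letters tgttct just before it, from -200 to -195, are the reverse complement of the glucocorticoid half-site AGAACA:
Trim63: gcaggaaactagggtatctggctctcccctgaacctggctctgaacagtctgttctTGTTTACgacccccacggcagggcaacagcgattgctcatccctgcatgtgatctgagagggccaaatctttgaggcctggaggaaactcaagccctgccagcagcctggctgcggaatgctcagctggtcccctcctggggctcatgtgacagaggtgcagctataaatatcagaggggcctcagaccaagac

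Among the 34 ubiquitin and E2 genes 6 rose and 10 fell. The conjugating enzymes Ube2e1 and Ube2d2a were lower, with log2 changes of -0.77 and -0.61. Of 21 subunits of the 19S particle, which takes in ubiquitinated proteins, 15 rose and none fell, with a median log2 change of 0.44. Psmd11, a 19S subunit, went from 15.2 ± 1.33 to 32.9 ± 6.48, and Psmd2 from 34.1 to 58.9. On the deposited TPM 5 of the 21 rose. Of 14 subunits of the 20S core 8 rose and 1 fell, with a median of 0.28, and 3 rose on the deposited TPM. The higher count was 4 without WT fed 1, WT fed 3, WT fed 4 or WT fasted 2, and 5 without WT fasted 1. Psma5 and Psmb2, both of the core, had log2 changes of 0.65 ± 0.14 and 0.52 ± 0.10. Zfand5, which binds the proteasome and speeds its work, rose from 68.1 to 186.7, and Nfe2l1, the factor that induces proteasome genes, from 68.8 to 101.8. Psme2, a subunit of the immunoproteasome activator, fell (-0.55 ± 0.12). Among 39 ubiquitin-specific proteases 12 rose and 4 fell, led by Usp3 (1.38 ± 0.12) and Usp28 (0.79 ± 0.08).

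Autophagy encloses cell parts in a membrane for delivery to lysosomes. Of its 49 genes 27 rose and 9 fell, with a median log2 change of 0.37, and without WT fasted 4 the counts were 27 and 10. Gabarapl1, a ubiquitin-like protein of the autophagosome membrane, had the smallest SE among genes of at least 5 TPM with a log2 change beyond 2 in either direction, with 13.1, 11.2, 12.8 and 11.8 in the fed and 84.1, 87.2, 82.3 and 84.7 in the fasted libraries (log2 change 2.78 ± 0.08). Fam134b (also called Retreg1), the receptor that feeds endoplasmic reticulum to autophagosomes, read 55.1, 55.8, 46.4 and 59.2 against 399, 488, 478 and 300. Ulk1, the kinase that starts autophagy, rose from 14.5 ± 0.99 to 48.1 ± 7.69, and Bnip3, a receptor for mitochondria, from 109.2 to 255.3. Among lysosome genes 11 of 48 rose (6 on the deposited TPM) and 3 fell (1 on the deposited TPM), with a median of 0.03 against -0.06 for all genes. Ctsl, a cathepsin known as a marker of muscle wasting, read 31.8, 32.4, 29.5 and 30.6 against 102, 98, 88.2 and 64.4. Npc1, which exports cholesterol from lysosomes, and the proton pump subunit Atp6v1h had log2 changes of 1.81 ± 0.26 and 1.08 ± 0.14. The count of lower lysosome genes was 1 without WT fed 1, WT fed 4 or WT fasted 1, and 7 without WT fasted 4. TFEB and related factors bind TCACGTG, which stood before the start of 3 of 37 called lysosome and autophagy genes with a RefSeq promoter and of 14 of 75 called or not. The share was 3.13% of all promoters and 5.91% of those of tested genes. Of those whose match lay outside annotated exons, Atp6v1a, a subunit of the lysosomal proton pump (4.18 ± 0.275 fed, 5.87 ± 0.978 fasted, adjusted p = 0.0128, and 0.0823 on the deposited TPM), had the largest change. Its 156 bases before the first annotated exon (chr16:44139306-44139461, minus strand) hold the letters on both strands, overlapping, in capitals:
Atp6v1a: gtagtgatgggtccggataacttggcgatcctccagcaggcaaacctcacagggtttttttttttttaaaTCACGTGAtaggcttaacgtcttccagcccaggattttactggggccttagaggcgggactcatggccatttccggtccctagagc

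Structural proteins of the cytosolic ribosome were mostly not called, with 5 of 81 higher and 12 lower and a median log2 change of -0.06. Many of them have processed pseudogenes to which reads may have been lost, and the lower count was 4 without WT fasted 2, 5 without WT fed 2, 7 without WT fed 4 and 19 without WT fasted 4. The higher count was 2 without WT fasted 1 and 3 without WT fasted 2 or any 1 of the fed libraries. On the deposited TPM 2 rose and 3 fell, and the lower count was 22 after quantile normalization, 7 on TPM recomputed without mitochondrial genes and 0 with no filter on low values. Of the genes for ribosome biogenesis, 26 of 49 rose and none fell, with a median of 0.49. Ddx56 and Rrs1, nucleolar factors of ribosome assembly, rose from 5.46 to 12.8 and from 5.33 to 12.8, and Gar1, a protein of snoRNA particles, from 2.13 to 4.10. Of 44 initiation factors 18 rose and 3 fell. Eif4e, the cap-binding protein that Eif4ebp1 blocks, fell from 21.8 to 11.7 (log2 change -0.89 ± 0.07), whereas its helicase partner Eif4a1 rose from 13.9 to 26.8. Of 20 cytosolic aminoacyl-tRNA synthetases, which charge transfer RNA, 8 rose and none fell, among them Eprs (0.96 ± 0.13) and Lars (0.74 ± 0.13). On the deposited TPM, 6 initiation factors and 2 synthetases rose and 1 initiation factor fell. Of all genes 10.5% rose and 14.6% fell on that scale, and the share of synthetases that rose was near the former.

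The integrated stress response, which joins amino acid shortage to the factor Atf4, had 7 of 17 genes higher and 4 lower. The latter count was 2 on the deposited TPM and without WT fed 4. With no filter on low values 1 of 25 tested genes was lower. Ppp1r15a, which ends the response by restoring eIF2α, rose from 6.57 to 33.3. Chac1, which degrades glutathione, read 16.8, 18.9, 11.8 and 28.9 in the fed and 79.5, 112, 114 and 54.1 in the fasted libraries. Psph, the last enzyme of serine synthesis and known to be induced in this response, fell (-1.07 ± 0.13). The letters TTGCATC, part of the composite element of C/EBP and Atf4, were found in the 250 bases before 4 of the 11 called members with a RefSeq promoter, 4 of 17 called or not, 2.19% of all promoters and 2.08% of those of tested genes. Chac1 had the largest change of the 4, and its 237 bases before the first annotated exon (chr2:119350992-119351228, plus strand) are shown with the match in capitals:
Chac1: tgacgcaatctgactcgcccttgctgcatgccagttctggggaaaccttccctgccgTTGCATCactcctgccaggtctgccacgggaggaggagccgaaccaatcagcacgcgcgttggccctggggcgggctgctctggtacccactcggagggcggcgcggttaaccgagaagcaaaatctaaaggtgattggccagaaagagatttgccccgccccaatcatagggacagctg

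In the endoplasmic reticulum list 7 of 25 genes rose (4 on the deposited TPM) and 5 fell, with the cochaperone Dnajb9 (from 25.8 to 52.4) and the stress sensor Ern1 (1.15 ± 0.12) higher and the oxidoreductase Pdia4 (-0.78 ± 0.12) lower. Of 32 heat shock proteins 9 rose and 3 fell, the latter count being 6 without WT fasted 4. Bag3, a cochaperone of chaperone-assisted autophagy, had a log2 change of 0.79 ± 0.09, and the small heat shock protein Hspb3 of muscle one of -1.42 ± 0.12.

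**Figure D3:**
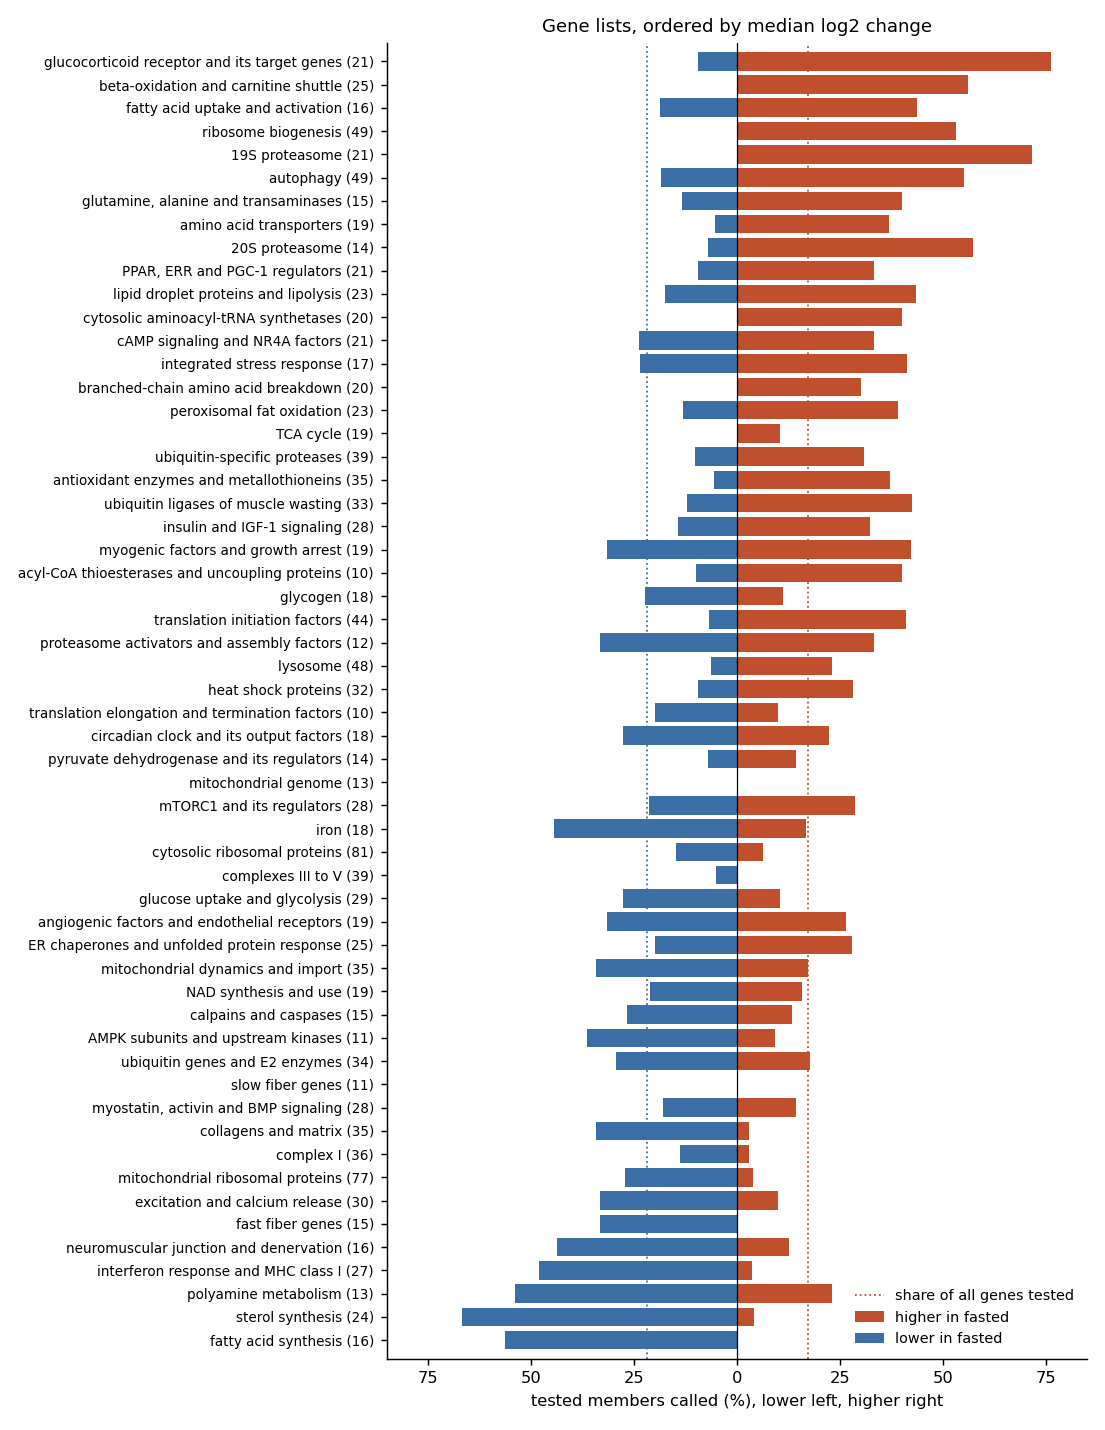
Share of tested members (x axis, %) called higher (red, right) or lower (blue, left) in fasted WT muscle for 56 gene lists with at least 10 tested members (number in parentheses), ordered by median log2 change. Dotted lines mark the shares over all tested genes, 17.1% higher and 21.8% lower. Glucocorticoid targets and the 19S proteasome extend farthest to the right, sterol and fatty acid synthesis farthest to the left.

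Fatty acids are burned in mitochondria by β-oxidation, which they reach through the carnitine shuttle. All 25 tested genes of β-oxidation and the carnitine shuttle had log2 changes above 0, with a median of 0.64, and 14 rose (13 without WT fasted 4, with a median of 0.43). Cpt1a, the liver form of the carnitine palmitoyltransferase that admits fatty acids to mitochondria, went from 1.83 to 4.33. Mlycd, which removes the Cpt1 inhibitor malonyl-CoA, read 12.7, 10.8, 12.3 and 12.1 in the fed and 36.9, 33.9, 25.7 and 48.6 in the fasted libraries. Acacb, which makes that same inhibitor at the mitochondrial surface, rose too, with 26.6, 29.7, 29.8 and 27.7 against 64.4, 58.1, 54.9 and 59. Eci2, needed for unsaturated fatty acids, had a log2 change of 0.97 ± 0.13. For 23 of the 25 genes WT fasted 4 exceeded the average of WT fasted 1 to 3.

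Ucp3, the muscle uncoupling protein, read 19.1, 23.1, 19.6 and 16.8 in the fed and 116, 91.2, 121 and 108 in the fasted libraries (log2 change 2.46 ± 0.12, adjusted p = 1.61e-06), and Ucp2 went from 1.65 to 3.97. Of 16 genes of fatty acid uptake and activation 7 rose and 3 fell, with Slc27a1, a transporter, higher (1.13 ± 0.18) and the synthetase Acsl4 lower (-0.69 ± 0.10). In the peroxisome list 9 of 23 genes rose and 3 fell. Cat, which breaks down the peroxide made there, read 33.4, 29.2, 26.5 and 30.8 against 87.5, 97.1, 86.4 and 127, and Ehhadh, an enzyme of peroxisomal β-oxidation, had a log2 change of 1.60 ± 0.23. The importer Abcd2 fell (-1.16 ± 0.10). Of 23 lipid droplet genes 10 rose and 4 fell. Pnpla2, the lipase that opens triglyceride breakdown, read 39, 35.7, 39.5 and 34.9 against 156, 172, 144 and 199, and the coat proteins Plin4 and Plin3 had log2 changes of 2.11 ± 0.11 and 0.79 ± 0.10.

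Fat and sterol synthesis are known to be driven by insulin. No gene of fatty acid synthesis rose and 9 of 16 fell, with a median log2 change of -0.62. Srebf1, the factor that insulin uses to induce these genes, read 16.1, 17.1, 12.9 and 13.1 in the fed and 4.3, 4.95, 5.09 and 3.73 in the fasted libraries. Fasn, the synthase, read 6.1, 3.75, 4.41 and 8.81 against 1.36, 1.2, 1.19 and 0.898, and Scd2, a desaturase, went from 10.2 to 3.36. Fat cells also express these genes. Their 8 markers summed to 936 to 1300 in fed and 660 to 839 in fasted muscle, most of it Car3, which muscle fibers make as well, and 3 of 7 tested markers fell. Adipoq, the defining marker among them, read 5.86, 4.27, 5.04 and 8.27 against 0.343, 4.13, 8.17 and 1.65. The groups overlapped (adjusted p = 0.172, and 0.0362 without WT fasted 3), and the part of fat cells in the decrease was not tested.

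In sterol synthesis 16 of 24 genes fell and 1 rose, with a median of -0.50. The lower count was 11 on the deposited TPM and 9 with no filter on low values. With a filter of at least 2 TPM in 4 libraries, 7 of 13 tested genes fell. Dhcr7 and Idi1, enzymes of the pathway, fell from 2.01 to 0.497 and from 4.43 to 2.19. The single increase was that of Fdft1, squalene synthase, from 25.1 to 39.0. Sterol-regulated factors of the Srebf family bind letters such as TCACNCC, which stood before 4 of 11 called members with a RefSeq promoter, 4 of 17 called or not, 13.4% of all promoters and 16.9% of those of tested genes. Of those with the match outside annotated exons, Srebf2, which encodes the sterol-sensing factor itself (4.06 ± 0.549 fed, 2.66 ± 0.078 fasted, adjusted p = 0.0028), had the largest change. Its stretch of 162 bases (chr15:82147019-82147180, plus strand) is shown with the match in capitals:
Srebf2: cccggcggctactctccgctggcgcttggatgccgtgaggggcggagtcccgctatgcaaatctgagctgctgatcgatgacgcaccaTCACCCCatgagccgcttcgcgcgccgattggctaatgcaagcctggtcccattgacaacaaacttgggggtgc

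Of 29 genes of glucose uptake and glycolysis 8 fell and 3 rose (5 without WT fasted 4), with a median log2 change of -0.09. The share that fell was near the 21.8% of all genes, and on the deposited TPM 2 fell, where 14.6% of all genes did. Pgam2, the muscle phosphoglycerate mutase, went from 928.7 to 452.8, while Slc2a1, a glucose transporter of many cell types, went from 1.83 to 3.66. In the glycogen list 4 of 18 genes fell, near the 21.8% of all genes, and 2 rose (5 without WT fasted 4). Among the decreases was Stbd1, which tethers glycogen to membranes (-1.18 ± 0.23). The count of decreases was 2 on the deposited TPM and without WT fed 2, WT fed 3 or WT fasted 2. Pyruvate dehydrogenase admits pyruvate to the citric acid cycle. Of 14 genes of the complex and its regulators 2 rose, Pdk4 and the phosphatase Pdp2 (0.895 ± 0.178 to 4.08 ± 1.32), and 1 fell (4 without WT fasted 4), the phosphatase Pdp1, which read 25.5, 19.7, 19.8 and 20.9 in the fed and 9.15, 10.4, 7.71 and 11.8 in the fasted libraries. In the citric acid cycle 2 of 19 genes rose, among them Ogdh, with a log2 change of 0.49 ± 0.13. Without WT fasted 3, 5 rose, and without WT fasted 4, 2 rose and 2 fell.

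The counts for the respiratory chain changed with single libraries, most of all with WT fasted 4. Of 36 nuclear genes of complex I, 1 rose and 5 fell, and without WT fasted 4 none rose and 21 fell, with a median log2 change of -0.28 against -0.19. Of 39 genes of complexes III to V, 2 fell with it and 19 without it. In every one of the 36 and the 39 genes WT fasted 4 exceeded the average of WT fasted 1 to 3. Leaving out any other single library gave 2 to 4 lower complex I genes and 0 or 1 of complexes III to V. The single higher gene of complex I was called neither on the deposited TPM, after quantile normalization or with the replicate block nor without WT fed 1, 2 or 4 or WT fasted 1 or 2, and 2 rose without WT fasted 3. After quantile normalization 11 complex I genes and 6 of complexes III to V fell. None of the 13 protein-coding mitochondrial genes was called, and 3 fell without WT fasted 4. Of 77 mitochondrial ribosomal proteins 3 rose and 21 fell, against 2 and 34 without it and 2 and 12 on the deposited TPM. With no filter on low values 5 rose and 8 fell. Mrps16 and Mrps11, of the small subunit, fell (-0.73 ± 0.11 and -0.65 ± 0.08), and Mrpl41, of the large subunit, rose (0.83 ± 0.08). In the list of mitochondrial dynamics and import 12 of 35 genes fell and 6 rose. Without WT fasted 4 the counts were 17 and 6, and on the deposited TPM 6 and 2. The lower count was 2 with no filter on low values. The matrix chaperone Clpx and the import protein Timm10 rose, with log2 changes of 1.12 ± 0.12 and 1.16 ± 0.16.

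Branched-chain amino acids are broken down mainly in muscle. Of 20 genes of that breakdown 6 rose and none fell, with a median of 0.21. Bckdha and Dbt, subunits of the committing dehydrogenase, had log2 changes of 0.65 ± 0.10 and 0.60 ± 0.11. Glul, which makes glutamine, the main nitrogen carrier from muscle to gut and kidney, read 45.2, 52.8, 44.8 and 38.5 in the fed and 318, 252, 341 and 138 in the fasted libraries. Of 19 amino acid transporters 7 rose and 1 fell, the decrease being lost on the deposited TPM and without WT fed 3, WT fed 4 or WT fasted 1, 3 or 4. Slc43a1, an exporter of leucine and related amino acids, read 4.04, 3.41, 4.27 and 3.23 against 29.9, 36.9, 40.2 and 14.9, and Slc7a2, which carries arginine and lysine, rose from 10.6 to 45.1. Prodh, the first enzyme of proline breakdown, had a log2 change of 1.22 ± 0.13.

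Polyamines are small cations that growing cells need. Amd1, the decarboxylase that commits methionine-derived groups to spermidine, read 1111, 1659, 1662 and 1359 in the fed and 416, 334, 581 and 191 in the fasted libraries (log2 change -2.02 ± 0.29, adjusted p = 0.000655). Its copy Amd2, with which it may share reads, had a log2 change of -2.05. Of 13 polyamine genes 7 fell and 3 rose. In the list of NAD synthesis and use, 4 of 19 genes fell, Nmrk2 among them, and 3 rose, among them the deacetylase Sirt1 (0.65 ± 0.09). Both shares were near those of all genes, 21.8% lower and 17.1% higher. The lower count was 2 without WT fed 1, WT fed 3 or WT fasted 2 and 7 without WT fasted 4. Nmrk2 was among the lower genes in each of these fits.

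Of 18 iron genes 8 fell (4 on the deposited TPM) and 3 rose. Tfrc, the transferrin receptor, read 47, 37.6, 38.3 and 42.9 in the fed and 9.15, 6.77, 8.22 and 10.8 in the fasted libraries, and Steap3, which reduces the imported iron, had a log2 change of -1.02 ± 0.12. Slc40a1, ferroportin, the exporter, rose from 9.38 to 20.7. The erythroid markers summed to 594 to 692 in fed and 620 to 1090 in fasted muscle, with 1 of 5 higher. Of 35 antioxidant genes and metallothioneins 13 rose and 2 fell (5 without WT fasted 4, and 1 without any other single library). Beside Cat, Mt1 and Mt2 the increases included Srxn1, which repairs peroxiredoxins (2.49 ± 0.19), and Hmox1, heme oxygenase (1.70 ± 0.12).

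Among 18 clock genes 4 rose and 5 fell, with a median log2 change of 0.001. Over all tested genes 17.1% rose and 21.8% fell. Per1, a clock repressor that glucocorticoids also induce, read 3.5, 1.37, 2.5 and 1.63 in the fed and 15.1, 15.9, 9.75 and 9.98 in the fasted libraries. The output factors Hlf and Bhlhe41 fell, with -1.21 ± 0.10 and -1.43 ± 0.13. The hour at which fed mice were killed is not given in the sources used here, so a difference in clock hour between the groups was not tested. The clock activators bind CACGTG, found in the 250 bases before 3 of 7 called members with a RefSeq promoter, 4 of 15 called or not, 6.02% of all promoters and 10.2% of those of tested genes. Per1 had the largest change, and its 249 bases before the annotated exon of that start (chr11:69098699-69098947, plus strand) are shown, within a longer Per1 transcript, with the match in capitals:
Per1: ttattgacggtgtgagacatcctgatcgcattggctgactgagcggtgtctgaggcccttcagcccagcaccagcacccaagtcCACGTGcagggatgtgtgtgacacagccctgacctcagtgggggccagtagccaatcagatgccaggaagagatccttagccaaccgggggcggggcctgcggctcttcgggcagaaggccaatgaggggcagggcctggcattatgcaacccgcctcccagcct

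Of 19 myogenic and growth arrest genes 8 rose and 6 fell. Cdkn1a, which stops the cell cycle, read 9.19, 8.13, 9.02 and 8.8 in the fed and 60.7, 81, 65.7 and 64.6 in the fasted libraries, a log2 change of 2.93 ± 0.10 (adjusted p = 1.7e-07), and WT fasted 4 was in the range of the other 3. Btg2, another growth arrest gene, had a log2 change of 2.38 ± 0.22, while Mef2c, a factor of muscle differentiation, fell (-0.97 ± 0.09). Myod1, a myogenic factor raised by denervation, read 10.9, 18.8, 19.9 and 14.6 against 2.96, 2.49, 3.49 and 4.01. Gadd45a, also raised by denervation, read 6.71, 9.42, 7.06 and 5.56 against 47.6, 41.9, 50.7 and 22.5. The 2 denervation genes thus moved in opposite directions. In the list of neuromuscular junction and denervation genes 7 of 16 fell and 2 rose (1 on the deposited TPM and without any single library but WT fasted 4), and the synaptic proteins Rapsn and Ache fell (-0.89 ± 0.10 and -1.14 ± 0.13).

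In the list of excitation and calcium release 10 of 30 genes fell and 3 rose (5 without WT fasted 4). The calmodulin gene Calm2 read 101, 127, 112 and 103 in the fed and 30.8, 25.2, 31.8 and 40.3 in the fasted libraries. Jph2, which holds the membranes of the triad together, and the chloride channel Clcn1 fell by 1.17 and by 1.03 on the log2 scale. Casq1, the calcium store protein of fast fibers, read 1213, 1393, 1352 and 1325 against 576, 582, 746 and 561.

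Of 35 collagen and matrix genes 12 fell and 1 rose (2 without WT fed 1). Serpinh1, the chaperone that collagen needs to fold, went from 20.7 ± 3.26 to 8.16 ± 0.623, Col15a1 and Col6a3 had log2 changes of -1.51 ± 0.15 and -1.31 ± 0.14, and Lox, which cross-links collagen, rose from 4.27 to 14.8. The 6 fibroblast markers, some of them collagens, summed to 420 to 655 in fed and 577 to 697 in fasted muscle. Of these markers 2 fell and none rose, and the part of fibroblasts in the decrease of the list was not tested. Of 27 interferon and MHC class I genes 13 fell and 1 rose, with a median of -0.42. The lower count was 4 without WT fed 1 or WT fasted 2, 6 without WT fasted 1 and 8 without WT fed 3 or on the deposited TPM. With no filter on low values 2 of 32 tested genes fell. The GTPase Gbp7 and the immunoproteasome subunit Psmb10 had log2 changes of -1.32 ± 0.17 and -0.83 ± 0.15. Markers of macrophages summed to 42.7 to 102 in fed and 79.2 to 112 in fasted muscle with none of 7 called, and those of T and B cells to at most 0.268 and 0.363.

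Slow fiber genes varied widely between libraries of the same group. Myh7, the myosin of slow fibers, read 29.4, 13, 11.4 and 32.7 in the fed and 30.2, 7.58, 4.14 and 58.2 in the fasted libraries, with a log2 change of -0.33 ± 0.75 (adjusted p = 0.748). None of 11 slow fiber genes was called. Each of the 11 was higher in WT fasted 4 than the average of WT fasted 1 to 3, by a median of 2.30 on the log2 scale. Their median log2 change was -0.16 with WT fasted 4 and -0.80 without it, where 1 gene was called lower. The list also divided the fed libraries, with WT fed 1 and 4 above WT fed 2 and 3. Of 15 fast fiber genes 5 fell and none rose (1 without WT fasted 3). Without WT fasted 4, 5 fell and 4 rose, and the median moved from -0.22 to -0.10. Mylpf and Myl1, light chains of fast myosin, fell from 4713 to 2907 and from 6530 to 3944.

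**Figure D4:**
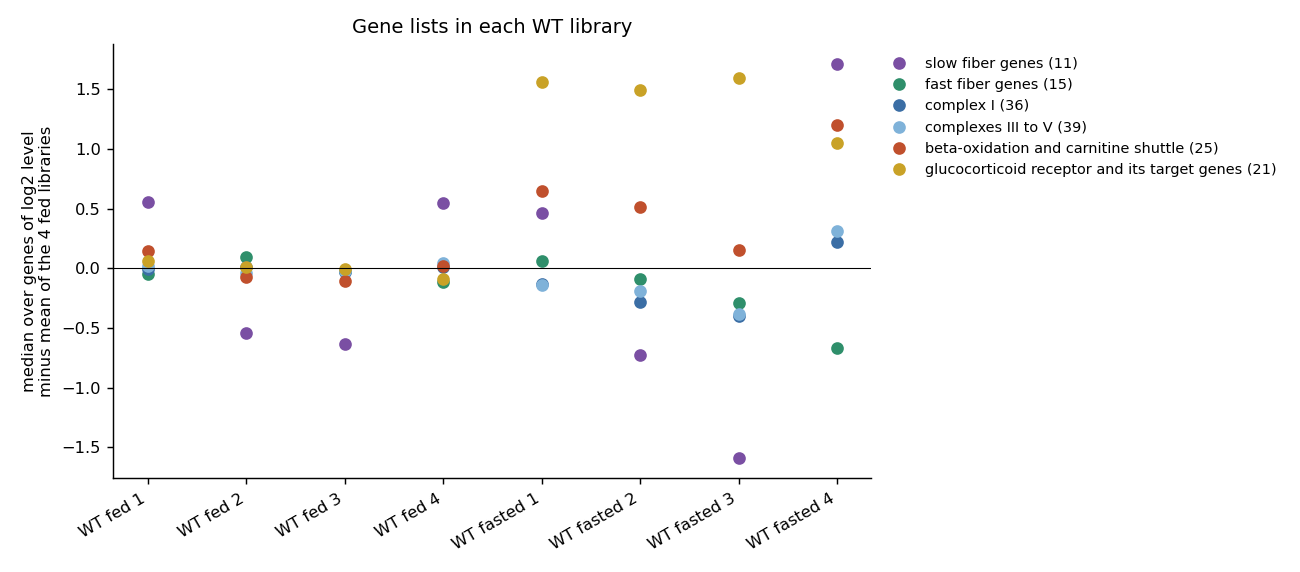
Median over genes of the log2 level minus the mean of the 4 fed libraries (y axis) for 6 gene lists in each WT library (x axis), with the number of genes in parentheses. Slow fiber genes range widely in both groups and peak in WT fasted 4, glucocorticoid targets are above 1 in all fasted libraries, and the respiratory chain lists are below 0 in WT fasted 1 to 3 and above 0 in WT fasted 4.

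The fasting response of WT muscle was set beside that of MKO muscle, with which it shares no library. In MKO muscle, in the fit of all 18 libraries, 2435 of 12111 genes (20.1%) were called higher and 2713 (22.4%) lower. Of the 4415 genes called in the fit of the 8 WT libraries, 4291 had the same sign in MKO and 3304 were also called there in the same direction. Pdk4 had a log2 change of 4.49 in MKO against 4.55 in WT, Trim63 one of 3.76 against 3.78, Fbxo32 one of 2.88 against 2.81 and Nmrk2 one of -5.20 against -5.90. A test of the difference itself, the interaction of feeding and genotype, called 15 of 12111 genes (0.124%). An unadjusted p under 0.05 was found for 1406, a larger share than 0.05 of the genes tested. Genes that were not called were therefore not shown to respond alike. No gene of the 59 lists was among the 15. Plcd4, a phospholipase C, was the only one of the 12 lowest genes among them. It fell by 2.57 in WT and by 1.52 in MKO on the log2 scale, a difference of -1.06 ± 0.19 (adjusted p = 0.0344). Maf, a factor of fast fiber identity chosen after its value was seen, had the largest difference among the 3 genes of smallest adjusted p, -1.26 ± 0.18 (adjusted p = 0.0184), with means of 64.5 in fed and 21.5 in fasted WT against 48.4 and 38.2 in MKO muscle, scaled over the 18 libraries. The number of such genes rested on single libraries. It was 0 without WT fed 2, WT fed 3, WT fed 4, MKO fed 5 or MKO fasted 4, 38 without WT fasted 4 and 27 without WT fed 1. It was 4 without MKO fed 3 or 4 or MKO fasted 3 or 5, 6 without MKO fasted 1, and 9 without WT fasted 2 or MKO fasted 2.

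**Figure D5:**
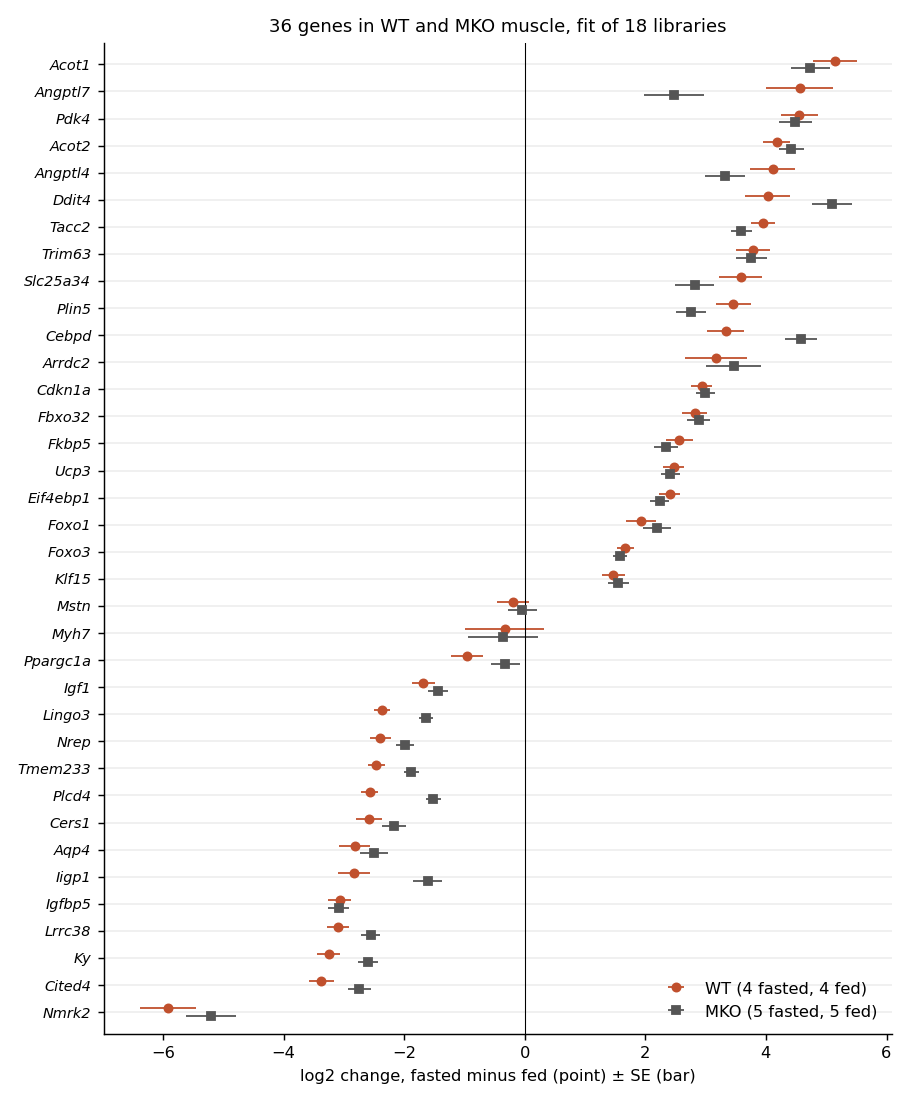
Log2 change between fasted and fed muscle (x axis, point ± SE) of 36 genes in WT (red, 4 and 4 libraries) and MKO (grey, 5 and 5 libraries), from 1 fit of 18 libraries. The genes are the 12 highest, the 12 lowest and those named whatever their values. Both genotypes have the same sign for all 36, and Plcd4 is the only one whose difference was called.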

How the data were processed

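Poly(A) RNA of mouse muscle was sequenced as single reads. The authors mapped the reads to GRCm38/mm10 in CLC Genomics Workbench (version, annotation and settings not given in the sources used here) and deposited 1 table of TPM per gene and library. This table holds no counts, so read depth is unknown and no counting interval is given. Its columns of log2 fold changes and FDR p-values, the authors' own comparisons, were not used.

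Only genes reaching 0.5 TPM in 4 or more of the 8 WT libraries were tested. The libraries were brought to a common median over these genes, and log2(TPM + 0.1) was fitted with limma 3.58.1 in R 4.3.3 (empirical Bayes with a trend, two-sided, Benjamini-Hochberg adjustment over all genes tested, threshold 0.05). The interaction came from 1 fit of the 18 libraries. The test was tried on simulated data first. Fits without a library kept the genes of the full set. P-values measure the spread between the labelled biological replicates. Other scalings, filters, pseudocounts, thresholds, a replicate block and each library left out were tried.

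The members and gene lists were chosen with earlier results of these data known. Named were the 12 highest and 12 lowest genes of at least 5 TPM whose groups did not overlap (gene models without a gene name, such as clone names, left out), up to 4 called members per list of at least 1 TPM, and a set of genes whatever their values. Exceptions are stated, or are markers and members whose promoter is shown. Promoter sequences are from RefSeq (GRCm38.p6), trimmed of annotated exons. Some items are not reported here.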

Additional observations from a re-analysis of the deposited data

Results flagged for a closer look

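In 354 sets of 4 libraries (the named genes, marker sums and library measures in each group), 1 library stood apart from the other 3 by Dixon's criterion in 19, and chance alone gives about 1 in 20. WT fasted 3 was the library apart in 5, WT fasted 4 and WT fed 1 in 4 each, WT fed 3 in 3, WT fed 4 in 2 and WT fed 2 in 1.

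In WT fasted 4, Prkag3 was at 9.36 median-scaled TPM against at least 21.2 in the other fasted libraries, Pde4a at 3.55 against 2.09 to 2.22 and Pdp2 at 6.03 against 3.24 to 3.69. The summed muscle fiber markers of that library were 28200 against 36200 to 36400. In WT fasted 3, Abcd2 was at 9.12, Casq1 at 746, Iigp1 at 7.87 and Fdft1 at 33.7, and the summed liver markers were 5.96 against 0 to 0.521. In WT fed 1, Ache was at 9.75, Aqp4 at 16.6, Dbt at 13.7 and Slc27a1 at 23.2, each above the other fed libraries. Plcd4 was at 36.0 in WT fed 2, and Eif4ebp1 at 28.4 and Ulk1 at 16.0 in WT fed 3. The summed T and B cell markers were 0.144 in WT fed 3, the summed Schwann cell markers 9.90 in WT fed 4, and the mitochondrial share of WT fed 4 was 75.0% against 74.3 to 74.4%.

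The fasting response was called different between WT and MKO muscle for Maf, by -1.26 on the log2 scale, and for Plcd4, by -1.06. Neither gene was called without WT fed 2, WT fed 3, WT fed 4, MKO fed 5 or MKO fasted 4, nor at a threshold of 0.01. Maf was chosen after its value was seen.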

How the results depend on the processing

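The count of genes called, 4415, was 2851 on the TPM as deposited and 2642 at a threshold of 0.01, and 3551 to 5061 without 1 library. The higher genes numbered 1197 and 1183 under those settings and 1560 to 2234 without 1 library. The lower genes numbered 1459 at 0.01, 1419 with no filter on low values, and 1972 to 2827 without 1 library. The 15 interaction genes became 4 as deposited, 8 after quantile normalization, 0 with no filter, 3 with a replicate block, 0 at a threshold of 0.01 and 0 to 38 without 1 library.

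Without 1 library the log2 change of Mstn ranged from -0.39 to 0.20, the sign turning without WT fasted 4, and that of Myh7 from -0.97 to 0.29, the sign turning without WT fasted 2 (0.0028) or 3 (0.29). None of these values was called. Atp6v1a lost its call as deposited, Mylpf and Myl1 with no filter, and Sgk1 with no filter (adjusted p = 0.087) and without WT fed 3 (0.053) or WT fasted 2 (0.0539), all in limma. The cause of these changes was not tested.

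Deviations of same-numbered fed and fasted libraries were correlated by -0.101, 0.0951, 0.0871 and 0.173, and not every library correlated best with its own number, so the numbers were not read as pairs. With the replicate block 4197 genes were called. Read depth is unknown, so the precision of low TPM cannot be given.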
